A study of Rattus norvegicus with 6 samples.

Results

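Potassium channel genes of the rat hippocampus were examined in AD and Sham samples. Members were the genes whose RefSeq rat symbol starts with Kcn, without Kcnj13 and Kcnj8. They comprise the pore-forming subunits and the auxiliary subunits that carry this prefix. Of 97 such symbols in RefSeq, 90 had a probe on the array, and 88 remained after the exclusions, out of 15168 named genes in the series. Each gene was represented by 1 probe, the one with the highest mean signal over the 6 arrays. A probe was tested where its signal was well above background on at least 3 arrays, which held for 75 of the 88 members and for 11968 named genes in all.

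The AD group (3 samples) comprised adult male Sprague Dawley (SD) rats that had received Aβ1-42 oligomers by intracerebroventricular (ICV) injection, and the Sham group (3 samples) comprised rats of the same strain and sex that had received the vehicle by the same route. Both groups therefore shared the cannulation, and AD denotes a model in which the peptide is supplied from outside the brain. Total RNA of hippocampal tissue was labelled with Cy3 and hybridised to 1 Agilent single-colour rat array per sample. The labels do not tie the samples to single animals, and p-values therefore reflect only how far these samples spread, which may be technical.

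Potassium channels let potassium leave the cell and so set the resting potential, shorten the action potential and limit repetitive firing. The voltage-gated families (Kcna, Kcnb, Kcnc, Kcnd, Kcnh, Kcnq) open on depolarisation, the Kcnma, Kcnn and Kcnt families respond to calcium or sodium inside the cell, the Kcnk family carries a leak current, and the Kcnj family of inward rectifiers holds neurons and astrocytes near the potassium equilibrium potential. Kcnf, Kcng, Kcns and Kcnv encode subunits that form no channel alone and modify Kcnb channels, and Kcnab, Kcne, Kcnip and Kcnmb encode auxiliary subunits.

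Levels are given on a log2 scale on which 0 is the 75th percentile of the array's processed signal, and are not comparable between probes. That percentile was 795.3 to 931.6 on the AD arrays and 429.2 to 755.1 on the Sham arrays, the lowest being Sham replicate 3. The share of probes well above background was 70.72% to 79.67%, and all 7 markers of hippocampal subfields with a probe were tested. The 3 AD arrays were scanned together, Sham replicates 1 and 2 in a second scan of the same day, and Sham replicate 3 alone on another day, so scan and group cannot be told apart. Neuronal markers were called lower in AD (adjusted p under 0.05) in 5 of 8 tested genes, 7 being lower in mean (median log2 change -0.46), and the summed linear level of the list was 72.1 to 75.7 in AD and 93.2 to 110 in Sham. Markers of GABAergic interneurons were called lower in 5 of 11, and all 11 were lower in mean (median -0.65, with sums of 45.0 to 48.1 in AD and 75.4 to 80.7 in Sham). In whole tissue, fewer cells of a type and less RNA per cell cannot be told apart, and the part of these marker levels in the results on channel genes was not tested.

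Among the potassium channel genes, 7 of 75 fell in AD and none rose (limma, Benjamini-Hochberg adjusted p under 0.05, the threshold for a gene to be called). The 7 were Kcnk2, Kcnab1, Kcnh1, Kcnq3, Kcnma1, Kcnk13 and Kcna3, with falls of 0.37 to 0.85 on the log2 scale. Their share of 9.33% stood beside 14.9% of all named genes and 12.6% of all tested probes that were called. In the lower direction 9.33% of the members and 10.8% of named genes were called, and in the higher direction 0 members and 4.09% of named genes. The members' share of calls was thus no higher than that of named genes.

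Other counts were also taken. An unadjusted p under 0.05 was reached by 26 members (34.7%, 20 lower and 6 higher), against 35.3% of named genes. Per probe and with the same adjustment, the methods' t-test called Kcna3 and Kcns3, both lower, and no member higher. All 3 AD values lay below all 3 Sham values in 22 members (29.3%, against 28.3% of named genes), and above them in 6 members (8.0%, against 15.7%). In mean, 45 members were lower and 30 higher, and the median log2 change was -0.09 over the members and -0.05 over named genes. Set against the Sham mean of each gene, the median member stood at -0.10, -0.12 and -0.09 in the AD samples and at -0.08, -0.05 and 0.15 in the Sham samples, each in order of replicate number. Thus Sham replicates 1 and 2 lay close to the AD arrays in this measure and Sham replicate 3 stood apart. This was not particular to the members. Set against the mean of the 6 arrays, the median named gene stood at -0.036, -0.040 and -0.017 in AD. In Sham it stood at -0.0001, 0.003 and 0.10, where the median member of Sham replicate 3 was at 0.17. With the scaling used here, no member reached the study's thresholds of a fold change of 2 with an unadjusted limma p under 0.05. The count was 1 with the authors' deposited log2 values, quantile normalization, median scaling or normexp background correction, and 2 with array weights.

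**Figure D1:**
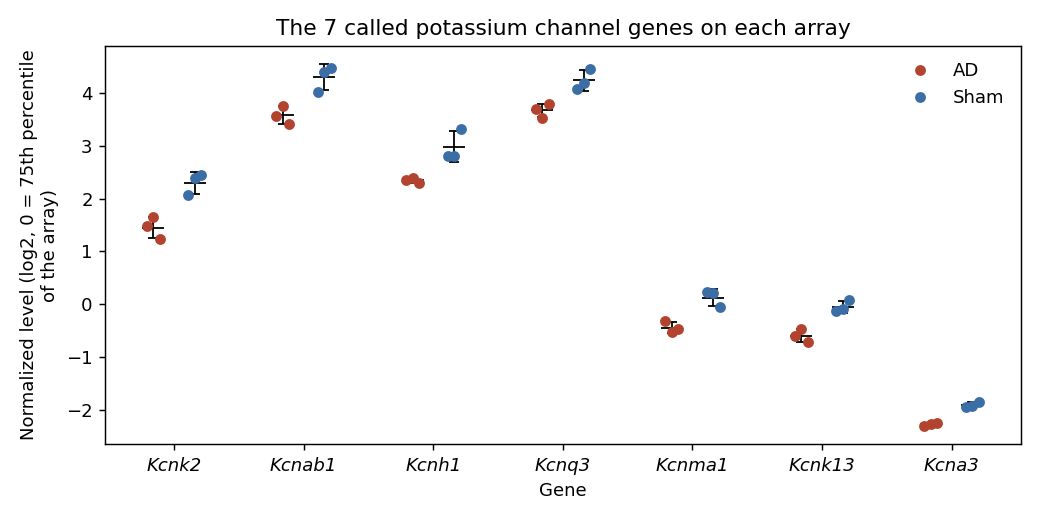
Normalized level (log2, 0 is the 75th percentile of the array) of the 7 called potassium channel genes on each array, AD at left and Sham at right for each gene, with the mean and SD (n = 3 each). For every gene the 3 AD points lie below the 3 Sham points.

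The promoter windows of the called genes are shown because these genes moved in the same direction. RefSeq windows on GRCr8 (300 bases each, mostly upstream of a start) matched 59 of the 88 members with 65 windows, and 6 of the 7 called genes with 7 windows, Kcnq3 being the one without. Each was searched on both strands for the GC box GGGCGG, the E box CACGTG and the TATA box TATAAA, counting overlapping matches. The GC box was present in 3 of the 7 windows of called genes (42.9%), in 52.7% of the 55 windows of tested members and in 33.1% of all 33469 windows. The E box was found in 0 of the 7, 5.45% of members' windows and 6.42% of all windows, and the TATA box in 0 of the 7, 1.82% and 14.2%. The median GC content was 69.0% for the called genes, 62.3% for the tested members and 51.7% for all windows. These matches describe the letters in the windows only. The 3 windows with a GC box (in capitals) were those of Kcnma1 (chr15:351675-351974, plus strand, 5 matches), Kcna3 (chr2:197320074-197320373, plus strand, 3 matches) and Kcnh1 (chr13:106252966-106253265, plus strand, 2 matches):
Kcnma1: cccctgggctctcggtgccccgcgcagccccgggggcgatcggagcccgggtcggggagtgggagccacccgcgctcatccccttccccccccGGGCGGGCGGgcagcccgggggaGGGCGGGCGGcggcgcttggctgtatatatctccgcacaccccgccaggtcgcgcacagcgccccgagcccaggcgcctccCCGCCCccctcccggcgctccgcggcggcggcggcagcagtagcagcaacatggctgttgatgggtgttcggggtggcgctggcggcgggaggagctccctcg
Kcna3: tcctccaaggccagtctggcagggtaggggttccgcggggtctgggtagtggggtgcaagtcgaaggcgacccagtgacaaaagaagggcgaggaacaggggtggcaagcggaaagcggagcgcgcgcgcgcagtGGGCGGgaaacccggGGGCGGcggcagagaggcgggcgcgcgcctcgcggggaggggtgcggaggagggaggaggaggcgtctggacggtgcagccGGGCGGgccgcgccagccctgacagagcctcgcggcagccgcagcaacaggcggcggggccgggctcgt
Kcnh1: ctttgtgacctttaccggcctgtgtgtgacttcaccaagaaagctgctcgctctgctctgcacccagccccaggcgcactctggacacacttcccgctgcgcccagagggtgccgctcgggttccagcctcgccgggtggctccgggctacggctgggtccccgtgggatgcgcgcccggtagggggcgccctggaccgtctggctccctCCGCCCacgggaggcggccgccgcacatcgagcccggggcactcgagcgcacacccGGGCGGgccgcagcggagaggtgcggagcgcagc

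Kcnk2 had 2 start windows on the minus strand of chromosome 13, chr13:103494637-103494936 and chr13:103438593-103438892, which are printed because its probes, made for more than 1 transcript record, did not move alike. With GC contents of 41.7% and 44.3% both were poorer in G and C than the windows of the other called genes, and neither held any of the motifs searched:
Kcnk2 first window: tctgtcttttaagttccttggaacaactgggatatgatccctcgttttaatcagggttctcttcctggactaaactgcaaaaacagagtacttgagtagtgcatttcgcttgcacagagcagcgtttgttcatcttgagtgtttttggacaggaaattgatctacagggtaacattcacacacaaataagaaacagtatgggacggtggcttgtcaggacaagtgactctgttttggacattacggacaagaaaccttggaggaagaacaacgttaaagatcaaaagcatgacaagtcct
Kcnk2 second window: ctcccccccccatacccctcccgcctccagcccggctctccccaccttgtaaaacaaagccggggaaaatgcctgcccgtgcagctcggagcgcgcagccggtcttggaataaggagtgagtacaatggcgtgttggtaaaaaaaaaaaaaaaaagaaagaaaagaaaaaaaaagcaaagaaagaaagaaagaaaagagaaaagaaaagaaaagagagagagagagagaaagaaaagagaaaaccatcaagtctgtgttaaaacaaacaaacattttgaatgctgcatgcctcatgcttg

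Of the leak channels, 2 of 11 tested members fell. Kcnk2 encodes TREK-1, a leak channel opened by stretch, arachidonic acid and volatile anaesthetics. In the AD samples it was at 1.47, 1.64 and 1.23, against 2.06, 2.40 and 2.44 in the Sham samples, given here and throughout in order of replicate number. The groups did not overlap, and the fall of 0.85 ± 0.15 on the log2 scale (SE, n = 3 per group, limma adjusted p = 0.0278) was the largest among the called members, an AD level 0.555 times that of Sham. The other tested probes of Kcnk2 differed by 0.04 (adjusted p = 0.886) and -0.38 (adjusted p = 0.0836).

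Kcnk13 encodes THIK-1, a leak channel best known in microglia. Its level was -0.60, -0.48 and -0.71 in AD and -0.13, -0.10 and 0.08 in Sham. Again the groups did not overlap, and Kcnk13 fell by 0.55 ± 0.11 (adjusted p = 0.0316), with a further probe at -0.44 (adjusted p = 0.182). Of 7 microglial markers, 0 were called by limma or by the methods' t-test and 0 had an unadjusted p under 0.05. In mean 4 of them were higher and 3 lower, with a median log2 change of 0.04 and summed levels of 9.67 to 13.6 in AD and 11.6 to 14 in Sham, and their part in the Kcnk13 values was not tested. Kcnk1, which encodes the weakly conducting TWIK-1, differed by 0.12 ± 0.11 (adjusted p = 0.466). Kcnk9, encoding the acid-sensitive TASK-3, had 3 AD values below the Sham values without passing the test (-0.43 ± 0.13, adjusted p = 0.0839).

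Of the voltage-gated pore subunits, 3 of 25 fell, each from another family. Kcnh1 encodes EAG1, a slowly activating channel of brain neurons. Its level was 2.34, 2.38 and 2.30 in AD and 2.81, 2.81 and 3.32 in Sham, so that the AD arrays agreed closely and Sham replicate 3 was the highest. The fall of 0.64 ± 0.16 was just inside the threshold (adjusted p = 0.0499).

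Kcnq3 encodes a subunit of the M channel, which holds back repetitive firing and is closed by muscarinic receptors. It was at 3.70, 3.52 and 3.78 in AD and at 4.07, 4.19 and 4.46 in Sham. The groups were separate, with a fall of 0.57 ± 0.13 (adjusted p = 0.0455). Its other probe showed 0.18 ± 0.12 (adjusted p = 0.353), the opposite sign.

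Kcna3 encodes Kv1.3, a channel of lymphocytes, microglia and some neurons. It was measured at -2.31, -2.28 and -2.25 in AD and at -1.96, -1.93 and -1.85 in Sham, the tightest replicates of the 7 genes. It fell by 0.37 ± 0.08 (adjusted p = 0.0382), the smallest called difference. The neuronal relative Kcna1 (Kv1.1) differed by 0.15 ± 0.11 (adjusted p = 0.395).

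The Kcnb, Kcnc and Kcnd families had no called member. Kcnb2, encoding a delayed rectifier, differed by -0.44 ± 0.14 without passing the test (adjusted p = 0.0975). All 3 Kcnd genes, which encode the dendritic A-type channels, were lower in mean, with -0.31 ± 0.15 for Kcnd2 (adjusted p = 0.208). In the family of Kcnh1, Kcnh3, which encodes an ether-a-go-go-like channel of the forebrain, differed by -0.19 ± 0.11 (adjusted p = 0.281). In Kcnh4 and Kcnh5 all 3 AD values lay above the Sham values, with differences of 0.45 and 0.51 and adjusted p-values of 0.148 and 0.0973. The brighter probe of Kcnh2 differed by 0.15 (adjusted p = 0.339) and its second probe by -0.25 ± 0.16 (adjusted p = 0.325).

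Kcnc2 encodes Kv3.2, a fast channel of hippocampal interneurons, and missed the threshold narrowly (adjusted p = 0.0501). Its level was 1.56, 1.40 and 1.23 in AD and 2.14, 1.99 and 1.76 in Sham, a difference of -0.57 ± 0.14 with no overlap. The interneuron markers given earlier differed in the same direction in mean, and among these Gad1, the GABA-synthesising enzyme, was at 3.53, 3.59 and 3.67 in AD and 4.50, 4.33 and 4.40 in Sham. The markers did not move alike, as Pvalb, Reln, Lhx6 and Calb2 were not called and had overlapping groups. Pvalb differed by only -0.05 ± 0.11 (adjusted p = 0.790). The part of the markers in the Kcnc2 values was not tested. A second Kcnc2 probe differed by -0.12 ± 0.10 (adjusted p = 0.481).

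**Figure D2:**
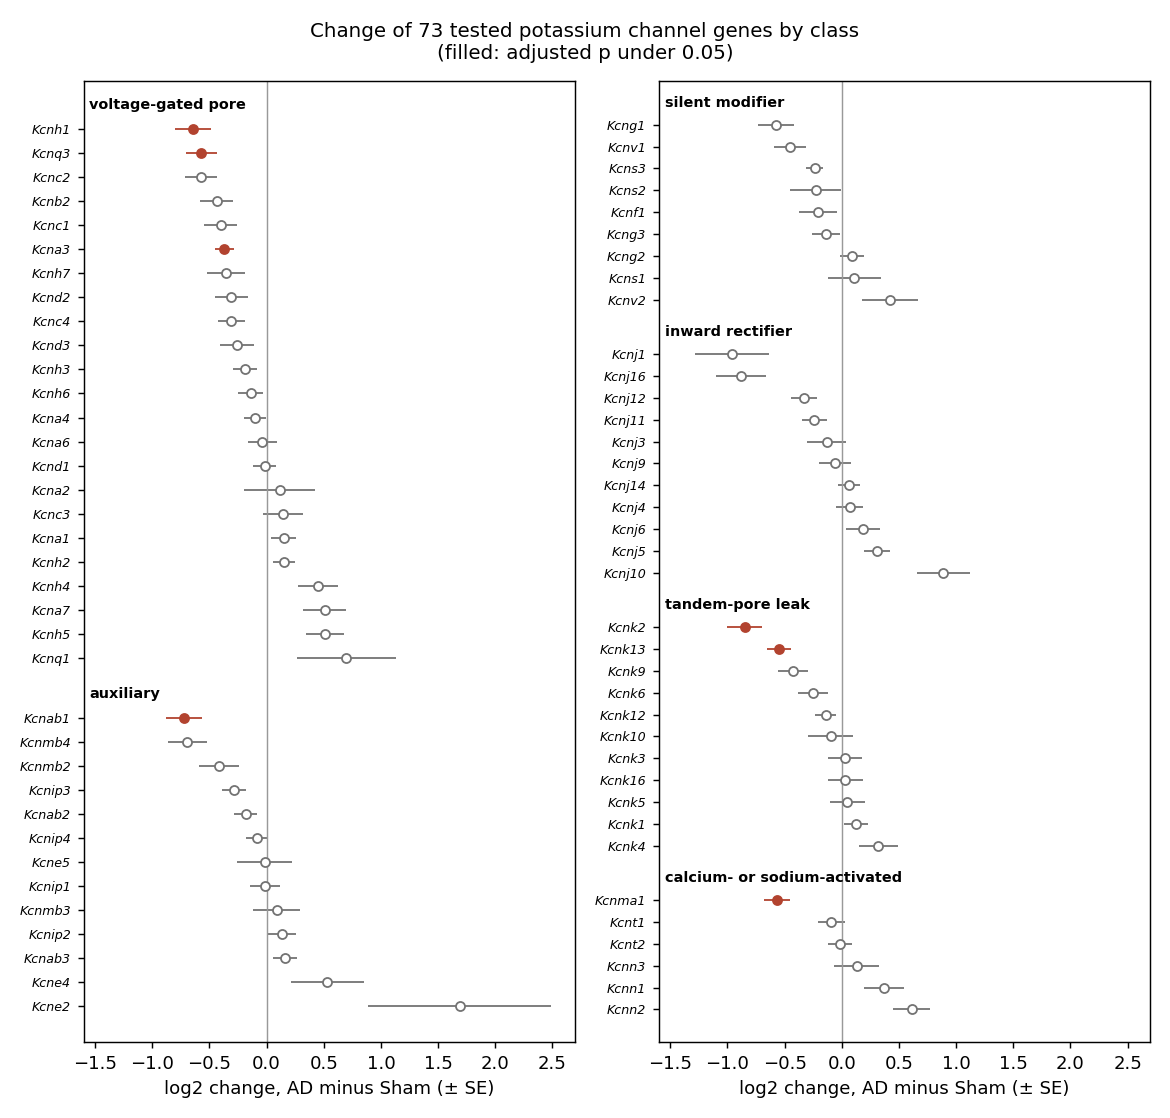
Change in level (log2, AD minus Sham, with SE) of 73 of the 75 tested potassium channel genes, grouped by class and sorted within it. Filled points mark the 7 genes with an adjusted p under 0.05, all below 0.

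Of the channels opened by calcium or sodium, 1 of 6 fell. Kcnma1 encodes the pore of the BK channel, which opens on calcium and depolarisation and speeds repolarisation. It was at -0.33, -0.54 and -0.47 in AD and 0.22, 0.20 and -0.06 in Sham, without overlap. The fall was 0.57 ± 0.11 (adjusted p = 0.0333). The other probes of Kcnma1, made for the same transcript record, gave 0.34 ± 0.16 (adjusted p = 0.210) and -0.15 ± 0.13 (adjusted p = 0.460), so that its direction depended on the probe.

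Kcnmb4, which encodes the neuronal BK auxiliary subunit β4, missed the threshold although its groups did not overlap. Its level was 3.37, 3.43 and 3.17 in AD and 3.85, 3.84 and 4.37 in Sham (-0.69 ± 0.17, adjusted p = 0.0506). For Kcnmb2, which encodes an inactivating BK subunit, the brighter probe differed by -0.42 ± 0.17 (adjusted p = 0.165), whereas a dimmer one fell by 0.67 ± 0.11 (adjusted p = 0.0240).

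In the Kcnn family of small-conductance calcium-activated channels all 3 tested genes were higher in mean. Kcnn2 encodes SK2, which shapes the afterhyperpolarisation and synaptic responses of pyramidal cells. It was at -0.97, -1.18 and -1.25 in AD and -1.57, -1.61 and -2.06 in Sham, without overlap and short of the threshold (0.61 ± 0.16, adjusted p = 0.0577). The brighter probe of Kcnn1 differed by 0.37 ± 0.18 (adjusted p = 0.211), and a dimmer one rose by 0.41 ± 0.10 (adjusted p = 0.0448). The sodium-activated Kcnt1 differed by -0.09 ± 0.12 (adjusted p = 0.627).

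Of 13 auxiliary subunits, 1 fell. Kcnab1 encodes Kvβ1, a cytoplasmic subunit that gives Kv1 channels fast inactivation and is abundant in CA1. It was at 3.57, 3.76 and 3.42 in AD and 4.03, 4.41 and 4.48 in Sham. The groups did not overlap, and it fell by 0.72 ± 0.16 (adjusted p = 0.0390), with a second probe at -0.19 ± 0.12 (adjusted p = 0.326). Markers of hippocampal subfields were called lower in 2 of 7 genes, Grp and the CA1 marker Fibcd1. In mean 3 were higher and 4 lower. Wfs1, also a CA1 marker, differed by 0.26 ± 0.27 with overlapping groups (limma adjusted p = 0.552). The median over the 7 genes was -0.21, with sums of 18.3 to 21.5 in AD and 23.7 to 28 in Sham. In Sham the fit and the sum lack Grp in replicate 2, an outlier spot. The part of these markers in the Kcnab1 result was not tested. Among the Kcnip genes, whose calcium-binding products assist Kcnd channels, Kcnip3 had the largest difference (-0.29 ± 0.10, adjusted p = 0.124).

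The probes of a gene often differed. Among the members, 64 had 1 probe, 21 had 2 and 3 had 3. In 17 genes, 19 probes beside the brightest were tested, of which 10 differed in the same direction as the brightest and 2 were called. None of the 7 called genes had a second probe that passed, although 5 of them, Kcnk2, Kcnab1, Kcnma1, Kcnk13 and Kcnq3, had one or more to compare. When all probes of a gene were averaged, 2 members were called, Kcna3 and Kcnmb2. That was 2.67% of the members, against 10.9% of all that was tested in this fit. Of the 7 only Kcna3 stayed below the threshold. Kcna3 and Kcnh1 have 1 probe each, so averaging could not change their log2 changes and tells nothing of agreement between probes. Kcnh1 was then at a limma adjusted p of 0.0531. The averaged log2 change was then -0.40 for Kcnk2, -0.46 for Kcnab1, -0.125 for Kcnma1 and -0.19 for Kcnq3.

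**Figure D3:**
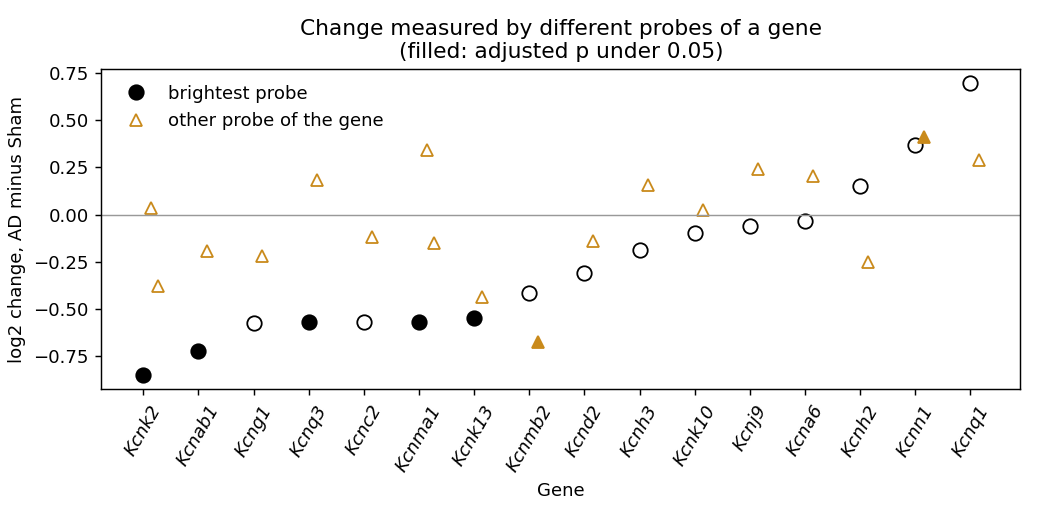
Change in level (log2, AD minus Sham) of the brightest probe (circles) and of the other tested probes (triangles) of 16 of the 17 potassium channel genes with more than 1 tested probe. Filled symbols have an adjusted p under 0.05. The other probes of Kcnk2, Kcnma1 and Kcnq3 lie on both sides of 0 or above it.

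None of 11 inward rectifiers was called by limma or by the methods' t-test, while 5 had an unadjusted limma p under 0.05. This class nevertheless held some of the widest differences. Kcnj10 and Kcnj16 encode Kir4.1 and Kir5.1, which combine in astrocytes to take up potassium, and were chosen for description after their values were seen. Kcnj10 was at -3.45, -3.47 and -3.15 in AD and -4.09, -3.90 and -4.74 in Sham (0.89 ± 0.23, adjusted p = 0.0580), a difference that was 0.15 with normexp background correction (adjusted p = 0.373). Kcnj16 was at -2.28, -1.88 and -2.45 in AD and -0.98, -1.32 and -1.66 in Sham (-0.88 ± 0.22, adjusted p = 0.0523). Neither gene's groups overlapped, and the differences had opposite signs. Astrocyte markers were called in 0 of 9 genes by limma and in 1 by the methods' t-test, 1 had an unadjusted limma p under 0.05, and their median log2 change was -0.21, with sums of 198 to 236 in AD and 225 to 268 in Sham.

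Kcnj1, which encodes the renal ROMK channel, showed the largest difference of this class (-0.96 ± 0.33, adjusted p = 0.105). A second Kcnj1 probe, made for the same transcript record, was well above background on 0 AD and 0 Sham arrays and was not tested. Kcnj3, encoding the GIRK1 subunit that G-protein-coupled receptors open, differed by -0.13 ± 0.17 (adjusted p = 0.630).

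The silent modifier subunits had 0 called members among 9 by limma and 1, Kcns3, by the methods' t-test, and 3 had an unadjusted limma p under 0.05 with all AD values below the Sham values. Kcng1 differed by -0.57 ± 0.16 (adjusted p = 0.0641), Kcnv1 by -0.45 ± 0.14 (adjusted p = 0.0839) and Kcns3 by -0.24 ± 0.08 (adjusted p = 0.0968). Kcnf1 differed by -0.20 ± 0.17 (adjusted p = 0.444).

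Kcne2 encodes a small auxiliary subunit that is also abundant in the choroid plexus, where in the mouse it works with Kcnq1. It was at 2.53, 0.11 and 3.29 in AD and at -0.16, 0.30 and 0.73 in Sham. Thus AD replicates 1 and 3 lay above every Sham array and AD replicate 2 lay among them, and the difference of 1.69 ± 0.80, the widest of all members, did not pass (adjusted p = 0.210). Over the 9 tested markers the median deviation from the Sham mean was 3.01, 0.58 and 3.85 in AD and -0.60, -0.05 and 0.69 in Sham, so that in this median too AD replicate 2 lay well below the other AD samples. By limma 0 of these markers were called and 6 had an unadjusted p under 0.05, the methods' t-test called 0, and all 9 were higher in mean. Their summed level was 83.1 to 147 in AD and 28.3 to 104 in Sham. That sum is mostly Ttr, by far the brightest probe of the list, whose groups overlapped (0.99 ± 0.48, limma adjusted p = 0.222). The part of the markers in the Kcne2 values was not tested. Kcnq1 was at -1.23, -1.50 and -0.08 in AD and -1.94, -1.94 and -1.03 in Sham (0.70 ± 0.43, adjusted p = 0.325).

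**Figure D4:**
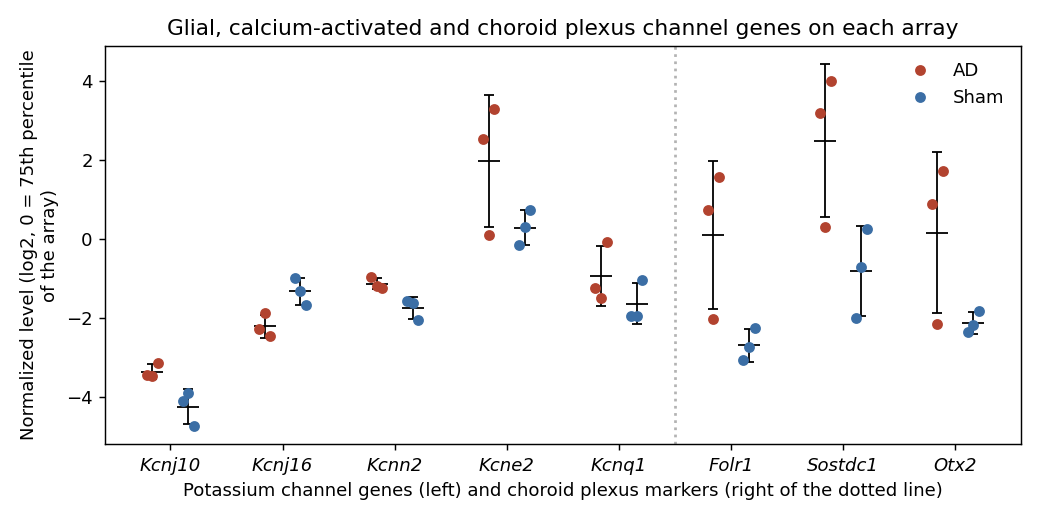
Normalized level (log2, 0 is the 75th percentile of the array) of 5 potassium channel genes and 3 choroid plexus markers on each array, AD at left and Sham at right for each gene, with mean and SD (n = 3 each). Kcnj10 is higher and Kcnj16 lower in all 3 AD samples, and in Kcne2 and the markers AD replicate 2 lies well below the other AD samples.

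Partner proteins outside the Kcn symbols were measured in 11 tested genes of a list of 15, of which 1 rose and 1 fell. Abcc9 encodes SUR2, the sulfonylurea receptor of the ATP-sensitive channel of vascular mural cells. It was at -2.28, -2.37 and -2.14 in AD and -3.11, -3.23 and -3.41 in Sham and rose by 0.99 ± 0.12 (adjusted p = 0.0183), or by 0.49 with normexp (adjusted p = 0.0326). Markers of endothelium and pericytes were called higher in 1 of 8 genes, Cldn5. In mean 4 were higher and 4 lower, with a median change of 0.00. The pericyte markers Pdgfrb, Rgs5 and Kcnj8 differed by 0.08, -0.03 and -0.34 (limma adjusted p = 0.686, 0.908 and 0.107). Kcnj11, the member that encodes a pore of ATP-sensitive channels, differed by -0.24 ± 0.11 (adjusted p = 0.196).

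Dpp10 encodes a transmembrane partner of Kcnd channels. It was at -2.30, -2.32 and -2.28 in AD and -1.89, -2.001 and -1.87 in Sham and fell by 0.38 ± 0.08 (adjusted p = 0.0370), while its relative Dpp6 differed by -0.43 ± 0.14 (adjusted p = 0.102). The 4 HCN channel genes, related cation channels, were all higher in mean, and 0 were called by limma or the methods' t-test or had an unadjusted p under 0.05.

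The calls depended on the arrays and on the model. All 7 calls were lost when any of AD replicates 1 to 3 or Sham replicates 1 or 2 was left out, and also with scan as a random block. These limma fits left 16 to 22 of 75 members with an unadjusted p under 0.05 when 1 of those arrays was left out and 13 with the scan block. Among all 22820 tested probes it was 4863 to 6453 when 1 array was left out and 3673 with the scan block. The same fits called 0 to 2 of all tested probes, so the loss of calls was not particular to the members. Without Sham replicate 3, which is the comparison within the first scan day, 14 members were called, 10 lower and 4 higher, among them 6 of the 7. Their share of 18.7% stood beside 19.5% of all tested probes called in the same fit. Kcnab1 was then at an adjusted p of 0.0534, and Kcnj16, Kcnc2, Kcnmb4, Kcnn2 and Kcnj10 were called at 0.0321, 0.0294, 0.0322, 0.0446 and 0.0366. The log2 changes of the 7 genes were below 0 in each of 21 alternatives. Among these, scan day as a fixed block repeats the fit without Sham replicate 3. All 3 AD values of each gene lay below its Sham values, so leaving out or weighting arrays could not turn the sign. Several other fits kept the same estimate, so these signs give no further support.

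**Figure D5:**
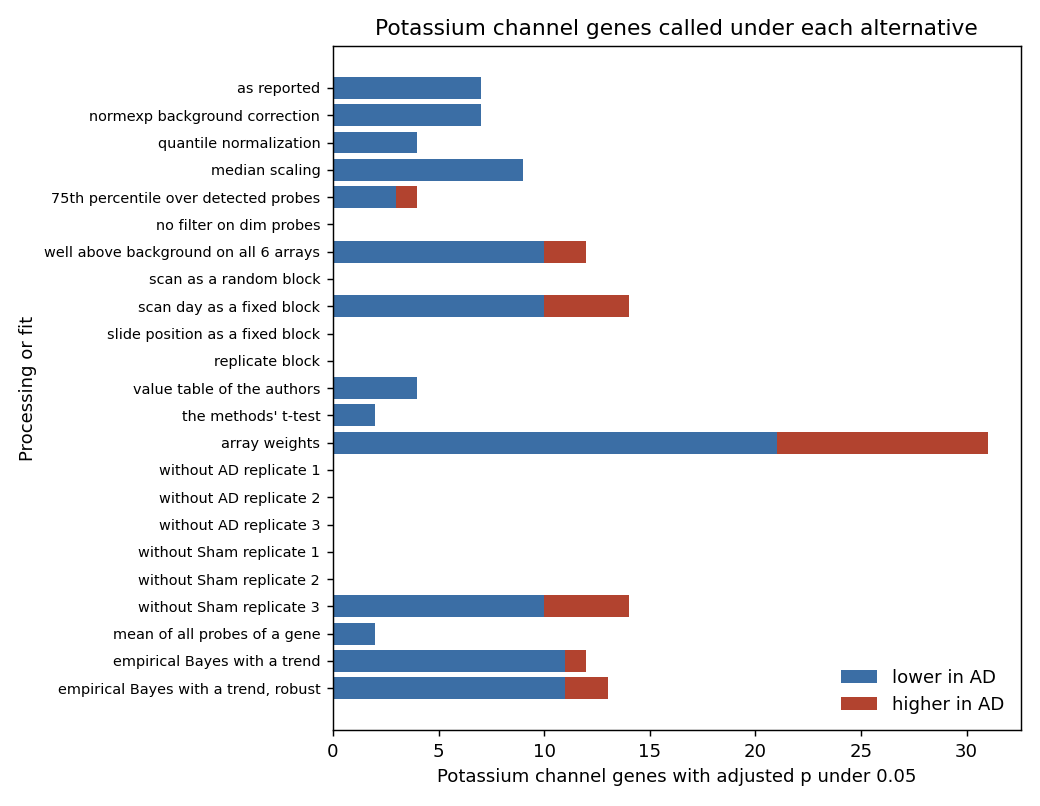
Number of potassium channel genes with an adjusted p under 0.05 as reported and under each alternative (bars, lower and higher in AD stacked). The count is 7 as reported, 0 when any single array other than Sham replicate 3 is left out, and 14 when that array is left out.

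The 13 untested members were well above background on at most 2 arrays. The threshold was not close for most genes, since 73 of the tested members passed on all 6 arrays and Kcnk9 and Kcns1 passed on 5. Just outside were Kcnh8, Kcnj2 and Kcnk18 with 2 arrays and Kcne1, Kcnn4 and Kcnrg with 1. No array was above background for Kcna10, Kcna5, Kcne3, Kcng4, Kcnj15, Kcnk15 and Kcnmb1. Each of these 13 had overlapping groups.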

How the data were processed

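Hippocampal RNA of 3 AD and 3 Sham samples, grouped by their titles, was measured on single-colour Agilent arrays. Per the file headers, the deposited intensity of each spot was extracted with Agilent Feature Extraction 11.0.1.1 and is background-subtracted and linear. The study's methods state no normalization between arrays. A second deposited table, of log2 values whose scaling the authors do not state (column medians of 6.57), was used only as an alternative. In it the columns for AD replicates 2 and 3 match the scanner values of AD replicates 3 and 2, which leaves the groups unaffected.

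Spots flagged as outliers, numbering 400 to 559 on an array, were dropped together with controls, no spot was saturated, and log2 signals were averaged per probe and scaled to the 75th percentile of each array. Array number limits the precision. AD was compared with Sham by lmFit and eBayes (limma 3.58.1, R 4.3.3), two-sided, without covariates, on 22820 probes well above background on at least 3 arrays, with Benjamini-Hochberg adjustment over all of them and a threshold of 0.05. The procedure was tested on simulated data. Probe accessions were matched without versions to RefSeq symbols of GRCr8, and 15252 of 26997 matched. Tables and plots were made with Python 3.11.15, pandas 2.3.3 and matplotlib 3.10.9.

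Described genes were every called member, the 10 members whose probes had the highest mean signal (used only to choose genes, since levels are not comparable between probes), the member with the largest change in each subfamily without a call, members whose probes differed in sign, called partner genes and Kcne2. Kcnj10, Kcnj16, Kcnk9, the Kcnh genes other than Kcnh1 and Kcnh3, and the further relatives named beside them were added after their values were seen. Of the genes under this rule and of the members plotted, 2 are not reported here, although counts over all members include them. The members, gene lists and tests were chosen with earlier results of these data known. Alternatives covered background correction with normexp (offset 50, on median spot and background signals, as the files used here hold no mean signal column), scaling, the filter, the probe rule, scan, slide position, array weights and each replicate. No pairing by replicate number is known, and none was used in the main fit. Correlations of deviations between same-numbered arrays were 0.03, 0.07 and 0.14, and between the others -0.119 to 0.0644. With 3 arrays per group, such small values cannot decide whether the numbers pair the samples.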

Additional observations from a re-analysis of the deposited data

How the results depend on the processing

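The 7 members called, all lower, became 4 with quantile normalization or the authors' value table, 4 (3 lower, 1 higher) with the percentile over detected probes, 2 with the methods' t-test or the mean of all probes, and 31 (21 lower, 10 higher) with array weights. The members' share was 5.33% with quantile normalization, the value table and detected probes, against 11.1%, 11.1% and 11.7% of all tested probes. It was 2.67% with the t-test, against 8.09%, and 41.3% with array weights, against 43.3%. With the mean of all probes it was 2.67%, against 10.9% of all that was tested. With normexp 7 were again called, 4 of them the same genes, with Kcna3 (adjusted p = 0.0881), Kcnab1 (0.0518) and Kcnh1 (0.0640) lost and Kcnc2, Kcnj16 and Kcnmb4 gained. They became 12 (10 lower, 2 higher) when all 6 arrays had to be above background and 14 (10 lower, 4 higher) with scan day as a fixed block. Sham replicate 3 is the only array of its day, so the scan day fit repeats the fit without that array. The members called became 0 without the filter, with scan as a random block and with slide position as a block. Empirical Bayes with a trend, added after seeing the data, gave 12 (11 lower, 1 higher), and its robust form 13 (11 lower, 2 higher). Leaving out 1 replicate gave 0 to 14 members (0 to 10 lower, 0 to 4 higher), 0 to 4453 probes and 0 to 4 partner genes. The 2864 probes called became 1768 with normexp, 1845 with the methods' t-test, 4453 with scan day, 9883 with array weights, and 0 without the filter, with scan as a random block and with slide position. The 2 partner genes became 1 with detected probes, 4 with scan day, 6 with array weights and 0 in the same 3 fits. With the replicate block 0 members, 0 probes and 0 partner genes were called, though the numbers share no known pairing. The members' median of -0.092 was -0.184 with normexp, which moved the median of all probes from -0.01 to -0.15, -0.00887 with detected probes, -0.0199 with array weights, -0.0309 with scan day or without Sham replicate 3, -0.0513 with the mean of all probes and -0.141 without Sham replicate 2. Kcnj3 changed sign with quantile normalization (0.0313) and the value table (0.0324), and Kcnt1 with array weights (0.000443) and without Sham replicate 1 (leaving out 1 replicate, -0.164 to 0.0106). The causes were not tested. With 3 arrays per group and 4 residual degrees of freedom, the lowest adjusted p over all probes was 0.0183.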

Other observations

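Markers of other tissues differed between the groups as well. Oligodendrocyte markers were called higher in AD in 5 of 10 genes, Cldn11, Cnp, Mobp, Ermn and Myrf (median log2 change 0.40), and 9 of the 10 were higher in mean. Their summed level was 106 to 126 in AD and 116 to 168 in Sham, a sum that includes Mbp, whose probe was the brightest of the list and which differed in the other direction (-0.33). Skeletal muscle markers were called higher in 2 of 10 genes, Myl11 and Myh1, and were higher in mean in all 10 (median 1.58). Their sums were 2.66 to 7.23 in AD and 1.29 to 2.25 in Sham. Among the 10, Tnnt3 and Myh4 passed the signal filter through their AD samples alone, as no Sham sample reached it. The filter thus fixed the direction of these genes, which the count of 10 and the median include. Kcna7, which encodes a Kv1 channel known from muscle, was at -3.98, -3.54 and -3.39 in AD and -4.26, -4.27 and -3.91 in Sham (0.51 ± 0.19, limma adjusted p = 0.128), and the groups overlapped. Markers of striatum and thalamus were called higher in 1 of 8 genes, Ppp1r1b (median 0.38, sums of 4.01 to 5.19 in AD and 3.82 to 4.03 in Sham). They did not move alike, as 5 were higher and 3 lower in mean. Drd2 was among the lower ones (-0.65 ± 0.19, limma adjusted p = 0.0785). Of 3 erythrocyte genes 0 were called by limma or the methods' t-test and 1 had an unadjusted limma p under 0.05 (median -1.25, sums of 6.42 to 13 in AD and 11.4 to 67.7 in Sham). The part of these levels in the results on channel genes was not tested.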
